A study of Mus musculus with 6 samples.

Results

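Transcripts of 32 genes that build or anchor cell junctions and set apicobasal polarity were compared between mouse embryonic stem cells with and without E-cadherin. The genes were chosen by symbol, and earlier results of these data were known when the list was made. They comprised 7 tight junction genes, 6 desmosome genes, 6 genes of nectins and of proteins that tie adhesion sites to actin, 10 polarity genes and 3 connexin genes, out of 55401 genes in the count table. Catenins, claudins and cadherins other than the desmosomal Dsg2 and Dsc2 were left out of the list. All 32 were counted well enough to be tested, with at least 65 counts in every library, and they are part of the 17325 genes tested in all.

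The study, whose title concerns E-cadherin and the stability and activity of beta-catenin, sequenced total RNA from V6.5 cells, a line of mouse embryonic stem cells. One group was wild type (WT, libraries A, B and C) and the other carried Cdh1-/-, the loss of both copies of the E-cadherin gene (knockout, libraries A, B and C). Neither an added agent nor a time point is named in the labels. Whether the knockout libraries came from 1 clone, and whether the replicates were separate cultures, is not given in the sources used here, so the p-values measure the spread between these libraries, which may be technical.

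Tight junctions seal the space between epithelial cells through membrane proteins such as occludin that bind scaffolds of the zonula occludens family. Desmosomes couple cells to intermediate filaments, nectins form adhesions that afadin links to actin, and connexins form the channels of gap junctions. The PAR, Crumbs and Scribble complexes divide the cell surface into apical and basolateral domains, with atypical protein kinase C acting against Lgl proteins. E-cadherin adhesion is known to initiate assembly of several of these structures in epithelia, and embryonic stem cells grow as compact, E-cadherin-rich colonies.

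Total counts lay between 18020719 and 23381942 per library. Levels are in CPM, counts scaled to the size and composition of their library, and levels of different genes were compared only per kb of exon length. Cdh1 itself stood at 537 to 571 CPM in WT and 166 CPM to 183 CPM in the knockout libraries; which part of the gene was deleted is not given in the sources used here, so counts over the whole gene check the labels only in part. Markers of stem cells summed to 4554 to 4910 CPM in WT and to 5144 to 6207 CPM in the knockout. Of the 8 tested, Tdgf1 alone was called, higher (1302 CPM in WT, 2014 CPM in the knockout). Pou5f1, Nanog and Sox2 averaged 459, 445 and 545 CPM in WT against 506, 526 and 535 CPM in the knockout. Markers of extraembryonic endoderm moved with genotype: all 7 of the tested ones were called higher, their sum was 153 to 219 CPM in WT and 413 CPM to 767 CPM in the knockout, and Afp was at or under the floor of 6 counts in every library. The calls of Foxa2 and Dab2 among them were lost in 5 of 14 and 6 of 16 alternatives. Fibroblast markers summed to 27.3 to 40.0 CPM in WT and 27.8 CPM to 37.4 CPM in the knockout, with Pdgfra called higher (6.73 CPM in WT, 18.9 CPM in the knockout) and Col1a1 lower (12.5 CPM in WT, 4.49 CPM in the knockout). Trophoblast markers summed to 112 to 120 CPM and 59.1 CPM to 75.7 CPM; Tfap2c, called lower, went from 96.2 to 46.2 CPM, and the other 5 tested ones were not called. In the knockout, chromosome 14 had a median log2 fold change 0.53 above that of all genes and chromosome 1 one 0.32 below it. The part of endoderm markers in the junction results was not tested. In such bulk RNA, fewer cells expressing a gene and less of its RNA per cell cannot be told apart.

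Most junction genes were not called, and those that were came from all 5 structures. Of the 32, 6 were called higher in the knockout (Ocln, Pkp3, Nectin1, Ajuba, Llgl1 and Gjb5) and 1 lower (Marveld3) at an adjusted p under 0.05 in edgeR's quasi-likelihood test. Together they make 21.9% of the list, against 13.3% of all tested genes. Of all tested genes, 7.6% were called higher and 5.71% lower. The members were measured more precisely, with a median standard error of 0.12 on the log2 scale against 0.16 for all tested genes. With at least 50 counts in 3 libraries required, 17% of all genes were called, and 6 members higher and 2 lower. The median log2 fold change of the 32 was 0.04, and that of all tested genes was -0.01. Estimates ran from -1.05 for Marveld3 to 0.88 for Gjb5 on the log2 scale. The knockout and WT libraries did not overlap in 13 of the 32 (40.6%), against 30.7% of all tested genes. For 22 of the 25 genes that were not called, the 95% interval of the fold change lay within 1.5-fold in either direction. Without knockout replicate A, the library that stood apart most, 6 were called higher and 2 lower, with Dsg2 and Pkp2 gained and Pkp3 lost. Without WT replicate A, or without knockout replicate C, 3 were called higher (Ajuba, Llgl1 and Nectin1), and without WT replicate B 4 were.

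**Figure D1:**
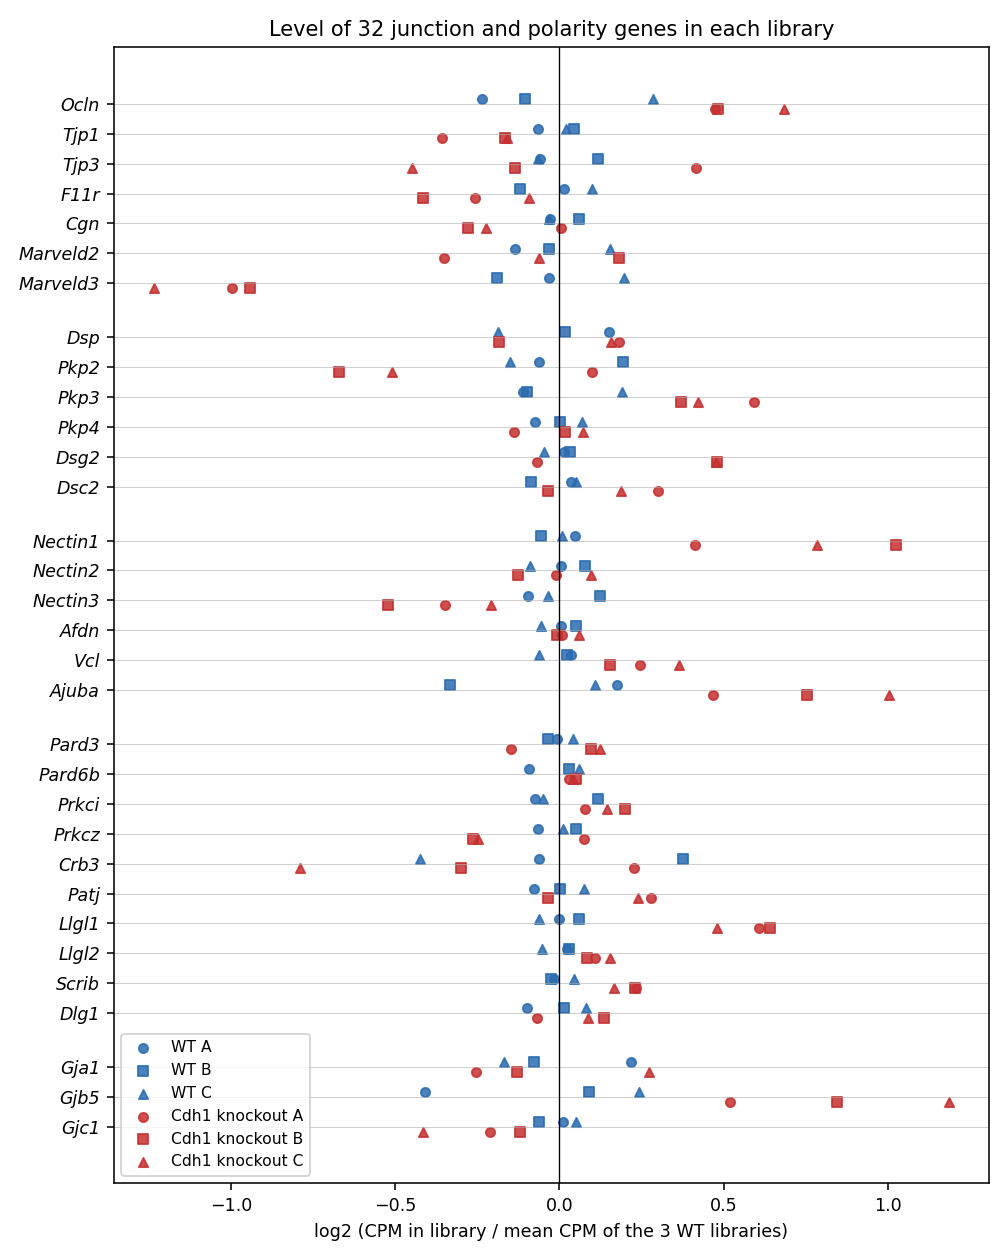
Level of each of the 32 genes in each library, as log2 of its CPM over the mean of the 3 WT libraries; blue symbols are WT, red symbols the Cdh1 knockout, and circle, square and triangle are replicates A, B and C. All knockout symbols of Marveld3 lie left of all WT symbols, and those of Ocln, Pkp3, Nectin1, Ajuba, Llgl1 and Gjb5 lie to the right.

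Promoter sequence was looked at because 6 genes of different structures were called in the same direction. RefSeq promoters of 300 bases (250 before to 50 after an annotated start, build GRCm38.p6) were matched for 23 of the 32 genes. Marveld3, Pkp2, Pkp3, Dsg2, Dsc2, Nectin1, Llgl2, Scrib and Gjc1 were not matched. The 4 called genes with a promoter are shown 5′ to 3′, followed by Crb3, which held the most matches to the E-box CACCTG. Capitals mark the E-box in Ocln and Crb3, the GC box GGGCGG in Llgl1, the TEAD core GGAATG in Ajuba, and the TATA box TATAAA and the TCF/LEF core CTTTGA in Gjb5, each on either strand.
Ocln: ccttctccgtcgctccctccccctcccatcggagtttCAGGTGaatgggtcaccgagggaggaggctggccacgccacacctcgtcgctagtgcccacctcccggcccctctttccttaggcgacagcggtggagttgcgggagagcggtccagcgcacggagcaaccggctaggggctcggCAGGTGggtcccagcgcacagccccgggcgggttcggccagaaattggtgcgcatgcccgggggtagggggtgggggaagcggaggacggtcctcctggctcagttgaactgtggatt
Llgl1: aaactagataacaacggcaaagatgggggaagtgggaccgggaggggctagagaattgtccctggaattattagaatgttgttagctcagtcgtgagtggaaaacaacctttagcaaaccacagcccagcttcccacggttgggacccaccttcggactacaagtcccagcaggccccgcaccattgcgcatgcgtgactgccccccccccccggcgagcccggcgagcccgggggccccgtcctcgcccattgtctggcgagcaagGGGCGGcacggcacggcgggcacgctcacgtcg
Ajuba: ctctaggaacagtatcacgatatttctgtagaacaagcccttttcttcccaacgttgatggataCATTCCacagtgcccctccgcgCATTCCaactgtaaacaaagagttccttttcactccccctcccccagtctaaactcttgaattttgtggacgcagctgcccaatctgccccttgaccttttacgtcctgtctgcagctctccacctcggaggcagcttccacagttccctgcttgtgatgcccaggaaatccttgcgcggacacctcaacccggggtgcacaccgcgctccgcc
Gjb5: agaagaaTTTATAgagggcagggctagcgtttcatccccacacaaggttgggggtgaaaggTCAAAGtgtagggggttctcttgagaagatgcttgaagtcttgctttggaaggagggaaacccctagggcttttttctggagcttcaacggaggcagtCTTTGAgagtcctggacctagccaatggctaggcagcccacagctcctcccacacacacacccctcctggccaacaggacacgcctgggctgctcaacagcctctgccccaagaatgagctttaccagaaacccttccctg
Crb3: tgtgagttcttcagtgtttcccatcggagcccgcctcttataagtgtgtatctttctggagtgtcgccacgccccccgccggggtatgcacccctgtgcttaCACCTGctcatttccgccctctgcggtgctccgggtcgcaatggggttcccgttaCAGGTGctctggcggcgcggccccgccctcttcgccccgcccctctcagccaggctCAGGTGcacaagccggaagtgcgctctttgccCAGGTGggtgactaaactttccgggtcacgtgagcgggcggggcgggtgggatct
These windows lie at chr13:100552449-100552748 on the minus strand, chr11:60699450-60699749 on the plus strand, chr14:54577612-54577911 on the minus strand, chr4:127358115-127358414 on the minus strand and chr17:57061981-57062280 on the plus strand.

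The 4 called genes with a matched promoter did not have 1 kind of promoter. Ocln held 2 E-boxes in this window, whereas the windows of Llgl1, Ajuba and Gjb5 held 0. Gjb5 had 3 CpG dinucleotides in its 300 bases, among the fewest of the member promoters, and the Ocln and Llgl1 windows had 24 and 23. Over the 23 genes, 13 (56.5%) had an E-box CACCTG, on either strand, in at least 1 promoter, against 22.4% of the tested genes with a promoter. The 13 were Crb3, Dlg1, Dsp, F11r, Marveld2, Nectin2, Ocln, Pard3, Pard6b, Patj, Pkp4, Prkcz and Tjp3, of which Ocln alone was called, and Crb3 held 4 in each of 2 overlapping windows. The GC box was found for 82.6% of the members and 67.4% of the tested genes, the TATA box for 17.4% and 8.94%, the TEAD core for 21.7% and 14.6%, the GRHL core AACCGG for 13.0% and 12.2%, and the TCF/LEF core for 8.70% and 14.2%. These are matches of letters within 300 bases, and binding was not measured.

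Tight junction genes split between a rise of occludin and a fall of a related membrane protein. Ocln (ENSMUSG00000021638.12, chromosome 13, 100496507 to 100552718, minus strand, GRCm38) encodes occludin, a membrane protein of the tight junction strands. Its level was 16.4, 17.9 and 23.5 CPM in the WT libraries A, B and C and 26.8, 27.0 and 31.0 CPM in the knockout replicates. Every knockout library lay above every WT library. Ocln rose 1.47-fold (log2 fold change 0.55, standard error (SE) 0.14, adjusted p 0.0199). That call was lost without WT replicate A (adjusted p 0.119), without WT replicate B (0.0999) or without knockout replicate C (0.0869).

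Marveld3 (ENSMUSG00000001672.14, chromosome 8, 109947914 to 109962203, minus strand) encodes a member of the same protein family as occludin and tricellulin. It was counted at 7.56, 6.77 and 8.85 CPM in WT and at 3.87, 4.02 and 3.28 CPM in the knockout replicates A, B and C. The groups were far apart relative to their spread, and Marveld3 fell by 51.8% (log2 fold change -1.05, SE 0.22, adjusted p 0.00443). Its call held in all 16 alternative settings. Marveld2, which encodes tricellulin of tricellular contacts, was at 10.4 ± 1.07 and 10.003 ± 1.83 CPM (SD, n = 3 each), with a 95% interval from -0.44 to 0.33 on the log2 scale.

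The scaffolds of the tight junction were more abundant than these membrane proteins. Tjp1, the more abundant of both zonula occludens scaffolds in the list, was at 286, 308 and 303 CPM in WT and 234, 267 and 268 CPM in the knockout replicates. All knockout libraries lay below all WT libraries, but the difference was not called (adjusted p 0.105) at a log2 fold change of -0.22. It was called when scaled by library totals (adjusted p 0.0427) or the upper quartile (0.0474). Its paralogue Tjp3 was at 35.6, 40.2 and 35.5 CPM in WT and at 49.5, 33.8 and 27.2 CPM in the knockout, so its knockout libraries spread to both sides of WT.

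Of the remaining tight junction members, F11r and Cgn had negative estimates that were not called. F11r encodes the junctional adhesion molecule JAM-A and lies on chromosome 1. It was at 66.7 ± 5.03 CPM in WT against 56.2 ± 6.28 CPM in the knockout (adjusted p 0.142, log2 fold change -0.25), and with the median of chromosome 1 removed its log2 fold change was 0.07. Cgn, which encodes the cytoplasmic plaque protein cingulin, stood at -0.16 on the log2 fold scale (adjusted p 0.325). In all, 1 of the 7 tight junction genes was called higher, 1 lower and 5 not. That makes 28.6% called, against 13.3% of all tested genes.

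Among desmosome genes, plakophilin 3 was the member called. Pkp3 (ENSMUSG00000054065.12, chromosome 7, 141078218 to 141090510, plus strand) encodes an armadillo protein of the desmosomal plaque. It was at 16.7, 16.8 and 20.5 CPM in WT and at 27.1, 23.2 and 24.1 CPM in the knockout replicates. The groups did not overlap, and Pkp3 rose 1.38-fold (log2 fold change 0.46, SE 0.13, adjusted p 0.0313). The call was lost without WT replicate A (adjusted p 0.143), WT replicate B (0.125), knockout replicate A (0.0640) or knockout replicate C (0.0656).

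Pkp2, another plakophilin, and Dsg2, a desmosomal cadherin, were called in some settings and not as reported. Pkp2 was at 69.2, 82.6 and 65.0 CPM in WT and at 77.4, 45.4 and 50.8 CPM in knockout replicates A, B and C. Dsg2, the gene of desmoglein 2, was at 111, 112 and 106 CPM in WT and at 104, 153 and 152 CPM in the knockout. For both genes knockout replicate A lay with or close to WT while B and C lay on one side. With all libraries and the filter on low counts neither was called (log2 fold change -0.32 with adjusted p 0.221 for Pkp2, and 0.32 with 0.111 for Dsg2). Without knockout replicate A, Pkp2 stood at -0.59 on the log2 fold scale (adjusted p 0.00122) and Dsg2 at 0.48 (adjusted p 0.000616). Dsg2 was also called with all libraries when no filter on low counts was set (log2 fold change 0.35, adjusted p 0.00957).

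Desmoplakin, encoded by Dsp, links the plaque to intermediate filaments, and its level was 67.4 ± 7.87 CPM in WT against 70.2 ± 9.51 CPM in the knockout (95% interval of the log2 fold change -0.19 to 0.31). Pkp4, a plakophilin relative also found at adherens junctions, was at 149 ± 7.47 and 148 ± 10.8 CPM (interval -0.20 to 0.17). Dsc2, the gene of desmocollin 2, was at 10.2 ± 0.522 and 11.4 ± 1.31 CPM (interval -0.19 to 0.50). These intervals allow only moderate changes of Dsp and Pkp4 and leave more room for Dsc2.

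Of the nectin genes, Nectin1 alone was called. Nectin1 (ENSMUSG00000032012.9, chromosome 9, 43743984 to 43832522, plus strand) encodes an immunoglobulin-like adhesion molecule that pairs with other nectins across the cell contact. Its WT replicates stood at 45.8, 42.6 and 44.5 CPM and its knockout replicates at 59.0, 90.2 and 76.4 CPM. Each knockout library exceeded the WT libraries by far more than their spread, with knockout replicate A nearest to WT. Nectin1 rose 1.70-fold (log2 fold change 0.76, SE 0.13, adjusted p 0.00115), and its call held in all 16 alternatives.

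Nectin3, a frequent partner of Nectin1 across contacts, was at 33.7, 39.2 and 35.1 CPM in WT and 28.2, 25.1 and 31.2 CPM in the knockout. The knockout libraries all lay lower, at a log2 fold change of -0.35 that missed the threshold (adjusted p 0.0649). It passed under library totals (adjusted p 0.0441), the upper quartile (0.0419) and a stricter filter on low counts (0.0464). Nectin2 was at 94.6 ± 5.50 and 93.9 ± 7.27 CPM, and Afdn, which encodes the afadin that anchors nectins to actin, at 355 ± 13.0 and 360 ± 8.86 CPM. The 95% intervals of the log2 fold change were -0.21 to 0.19 for Nectin2 and -0.15 to 0.19 for Afdn, the latter the narrowest of the list.

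The remaining members of this group, Ajuba and Vcl, lie on chromosome 14. Ajuba (ENSMUSG00000022178.11, 54567472 to 54577558, minus strand) encodes a LIM protein found at adherens junctions and in Hippo signalling. It was at 178, 125 and 170 CPM in WT and at 218, 266 and 317 CPM in the knockout replicates. The groups did not overlap, and Ajuba rose 1.69-fold (log2 fold change 0.76, SE 0.14, adjusted p 0.00205). With the median of chromosome 14 removed, its log2 fold change was 0.23 and its adjusted p 0.357, while its call held in the other 15 alternatives.

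Vcl, the gene of vinculin, which binds alpha-catenin and actin at contacts under tension, was at 87.4, 86.7 and 81.7 CPM in WT and 101, 94.9 and 110 CPM in the knockout. These groups were separate but the difference was not called (adjusted p 0.0742) at a log2 fold change of 0.26. After removal of the chromosome median the estimate turned to -0.28 (adjusted p 0.0679). Exons of Ap3m1 on the opposite strand cover 39.7% of Vcl's exon bases. Which strand option was used for counting is not given in the sources used here. Vcl was the 1 member with more than 10% of its exon bases under another gene.

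**Figure D2:**
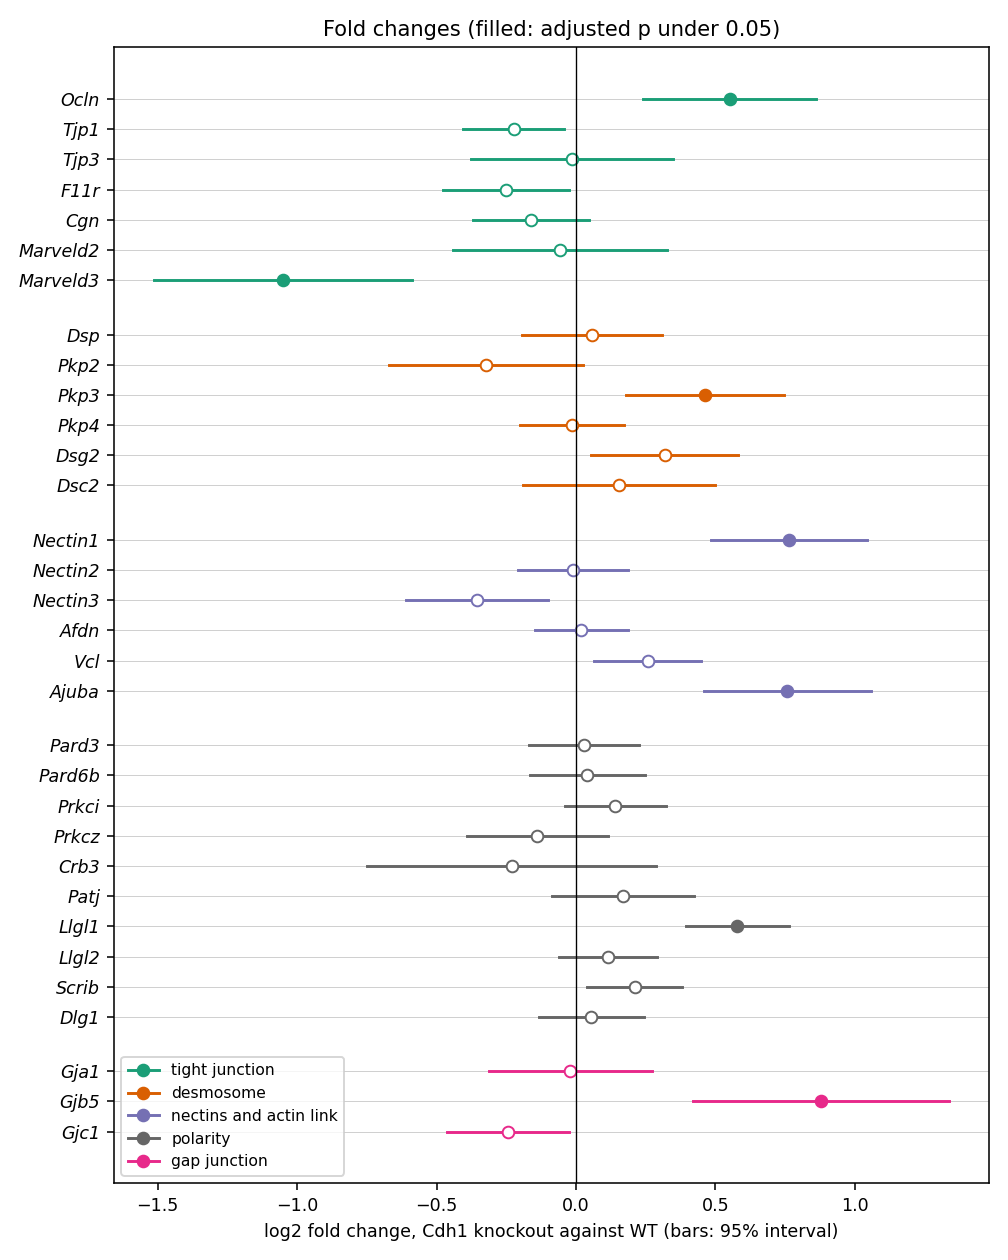
Log2 fold change of each of the 32 genes, Cdh1 knockout against WT, with its 95% interval as a bar; filled circles passed an adjusted p of 0.05 and colours give the structure. The 6 filled circles to the right are spread over all 5 structures, and Marveld3 is the filled circle to the left, at -1.05.

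Llgl1 was the polarity gene called. Of 10 polarity genes, 1 was called higher, 0 were called lower, and 2 had an unadjusted p under 0.05 in edgeR's test, against 13.3% called and 26.7% with such a p among all tested genes; DESeq2 called the same gene. Llgl1 (ENSMUSG00000020536.12, chromosome 11, 60699723 to 60714186, plus strand) encodes a Lgl protein of the basolateral domain that atypical protein kinase C phosphorylates. Its level was 89.4, 93.4 and 85.7 CPM in WT and 137, 140 and 125 CPM in the knockout replicates. The groups were separated by several times their spread. Llgl1 rose 1.49-fold (log2 fold change 0.58, SE 0.09, adjusted p 0.0004), the smallest adjusted p among the 32 genes, and the call held in all 16 alternatives.

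The other Scribble complex members had small positive estimates. Scrib, the scaffold that names the complex, was at 143, 142 and 149 CPM in WT and 170, 170 and 163 CPM in the knockout (adjusted p 0.101, log2 fold change 0.21). Llgl2 was at 108, 109 and 103 CPM in WT and 115, 113 and 119 CPM in the knockout (adjusted p 0.410, log2 fold change 0.11). In both genes the libraries of the genotypes were separate, and neither was called. Dlg1, a membrane-associated guanylate kinase scaffold, overlapped between genotypes at 178 ± 11.2 and 185 ± 13.5 CPM.

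Members of the PAR complex showed close levels in both genotypes. Pard3, the scaffold that recruits the complex to junctions, was at 111 ± 2.98 and 113 ± 11.4 CPM (95% interval of the log2 fold change -0.17 to 0.23). Pard6b, the adaptor of atypical protein kinase C, was at 44.8 ± 2.47 and 46.1 ± 0.356 CPM (interval -0.17 to 0.25). Prkci and Prkcz, the atypical kinases iota and zeta, had log2 fold changes of 0.14 (adjusted p 0.318) and -0.14 (adjusted p 0.504). None of these 4 was called under any of the 16 alternatives.

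For the Crumbs complex the data were less precise. Crb3, the small apical membrane protein of epithelia, was at 13.2, 17.9 and 10.3 CPM in WT and 16.1, 11.2 and 7.97 CPM in the knockout. Libraries of both genotypes spread over the same range, and the interval from -0.75 to 0.29 was the widest of the list. Patj, the multi-PDZ scaffold that connects Crumbs to tight junctions, was at 29.0 ± 1.53 and 32.6 ± 3.73 CPM (interval -0.09 to 0.42).

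Connexin genes also went separate ways. Gjb5 (ENSMUSG00000042357.2, chromosome 4, 127354809 to 127358181, minus strand) encodes a beta connexin. It was at 5.22, 7.38 and 8.20 CPM in WT and 9.95, 12.4 and 15.8 CPM in the knockout replicates. The lowest knockout library lay above the highest WT library, with a wide spread in both groups. Gjb5 rose 1.84-fold (log2 fold change 0.88, SE 0.21, adjusted p 0.0129), the largest rise in the list. Its call was lost without WT replicate A (adjusted p 0.0755) or knockout replicate C (0.0751).

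Gja1, the gene of the most widely expressed connexin, was at 70.4, 57.4 and 53.9 CPM in WT and 50.7, 55.4 and 73.2 CPM in the knockout, with no separation. Gjc1, a gamma connexin, was at 58.4, 55.5 and 60.1 CPM in WT and 50.1, 53.3 and 43.4 CPM in the knockout. Its knockout libraries were all lower, and the difference was not called (adjusted p 0.141) at a log2 fold change of -0.24.

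Per kb of exon length, the list spanned a wide range of levels. In WT, Prkci was highest at 55.6 CPM per kb, followed by Ajuba at 46.5, Afdn at 44.9 and Tjp1 at 42.1 CPM per kb, and these 4 were in the top 10% of tested genes. Dsc2 at 2.20, Marveld3 at 2.42, Patj at 2.94 and Marveld2 at 3.09 CPM per kb were lowest. The median of the 32 was 13.2 CPM per kb against 5.17 CPM per kb for all tested genes, and 25 of the 32 lay above that median. In the knockout, Ajuba stood at 78.7 CPM per kb, above Prkci at 61.3 CPM per kb.

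Shares within families followed from these levels, and showed which paralogue dominated. Of the summed level per kb of Nectin1, Nectin2 and Nectin3, Nectin1 held 20.02%, 17.95% and 20.4% in the WT replicates and 24.8%, 35.5% and 28.4% in the knockout replicates. Nectin2 remained the main nectin, with 72.2 ± 1.13% in WT and 64.6 ± 4.85% in the knockout (SD, n = 3 each). Llgl1 went from 40.9 ± 0.500% of the Lgl pair in WT to 48.8 ± 2.07% in the knockout, close to an even balance with Llgl2. Marveld2 held 56.1 ± 2.34% of the Marveld pair in WT and 71.5 ± 4.20% in the knockout.

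Gjb5 had 9.36 ± 2.36% of the sum of Gja1, Gjb5 and Gjc1 in WT and 17.01 ± 2.44% in the knockout, and Pkp3 had 9.48 ± 1.23% and 13.7 ± 0.191% of the sum of Pkp2, Pkp3 and Pkp4. Prkci held 87.8 ± 0.472% and 89.7 ± 1.63% of the atypical kinase pair. For Tjp1 against Tjp3 the share was 78.1 ± 0.933% in WT and 75.6 ± 7.11% in the knockout, with knockout replicate A at 67.6%. Of 14 shares tested, 8 reached 0.1 in an exact two-sided permutation test, the smallest p that 3 libraries against 3 can give, or 0.175 after Benjamini-Hochberg adjustment over the 14. No share could therefore pass 0.05.

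**Figure D3:**
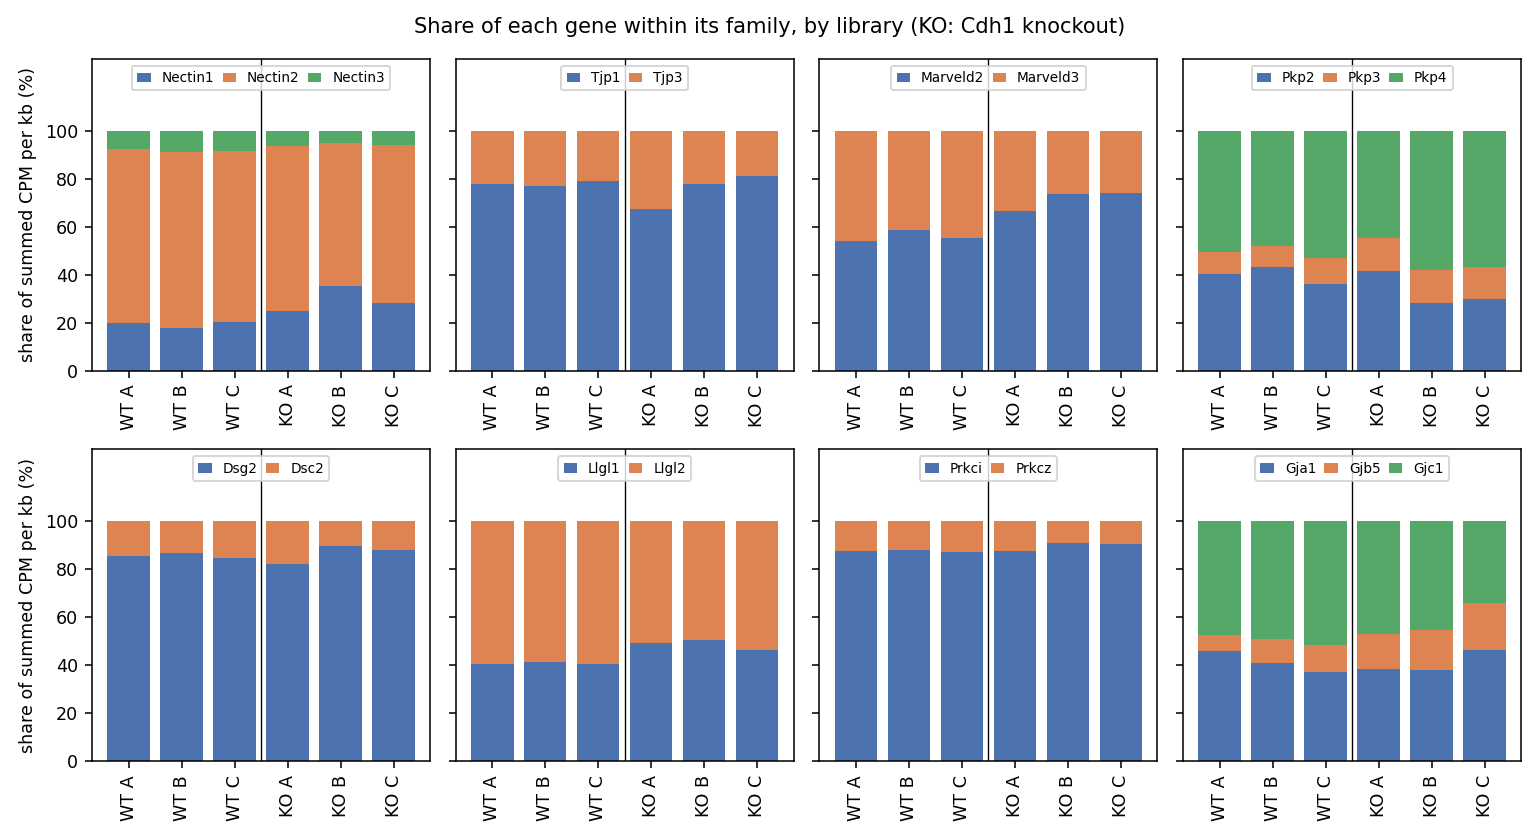
Share of each gene in the summed CPM per kb of its family, in percent, for each library; the line separates the 3 WT libraries from the 3 Cdh1 knockout (KO) libraries. The Nectin1 part is larger in all knockout libraries, at 24.8% to 35.5%, than in any WT library, and knockout replicate A has the smallest Tjp1 part, at 67.6%.

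Knockout replicate A differed from its group in several members. Among the knockout libraries it was the one farthest from the other two in 15 of the 32 genes, against 6 for B and 11 for C. It was the highest knockout library for Tjp3, Pkp2 and Crb3, and the lowest for Dsg2 and Nectin1. In WT, replicate A was farthest in 8 genes, B in 12 and C in 12.

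**Figure D4:**
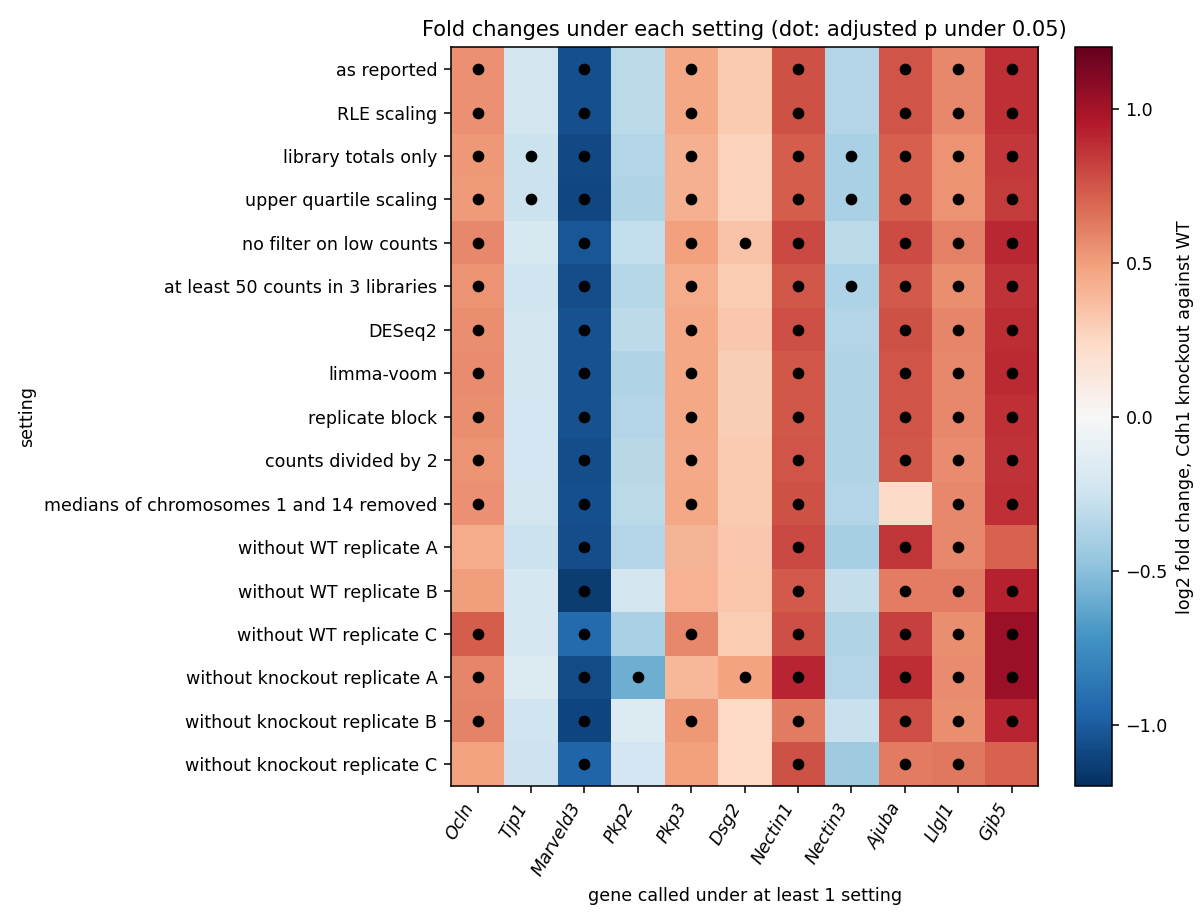
Log2 fold change, Cdh1 knockout against WT, of the 11 genes called under at least 1 setting (columns) in the fit as reported and 16 alternatives (rows); colour gives the value and a dot an adjusted p under 0.05. Marveld3, Nectin1 and Llgl1 have a dot in every row, Ajuba in all but the row with chromosome medians removed, and Pkp2 has 1 dot, without knockout replicate A.

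Other genes of the same structures gave a wider view. Of 94 further genes 71 were tested, and 8 were called higher and 7 lower, which is 21.1% against 13.3% of all tested genes. With at least 50 counts in 3 libraries required, 16 of the further genes and 17% of all genes were called. Their median log2 fold change was -0.01, the same as that of all tested genes at this rounding.

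Among 16 further tight junction genes, 1 was called higher and 3 lower (25%, against 13.3% of all tested genes). Jam2, a junctional adhesion molecule, rose from 144 ± 33.7 to 426 ± 99.9 CPM (log2 fold change 1.56, adjusted p 3.36e-05). Its relative F11r, described above, had a negative estimate that was not called. Mpdz, a multi-PDZ scaffold and the closest relative of Patj, fell from 38.0 ± 3.35 to 15.6 ± 1.92 CPM (log2 fold change -1.28, adjusted p 1.73e-05). Arhgef2, a guanine nucleotide exchange factor that cingulin binds, stood at -0.44 on the log2 fold scale (adjusted p 0.00641). Ybx3, named after its value was seen, stood at -0.34 (adjusted p 0.0192), and its call was lost in 4 of the 16 alternatives.

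The desmosome neighbours, a group that included the keratins Krt8, Krt18 and Krt19, were called in the largest proportion. Of 9 tested genes 5 were called (55.6%, against 13.3% of all tested genes), with 4 higher and 1 lower. Perp, a tetraspan protein of desmosomes and a target of p53, rose from 25.7 ± 3.90 to 61.9 ± 10.8 CPM (log2 fold change 1.27, adjusted p 3.75e-05). Krt19, a keratin of simple epithelia, stood at 0.60 on the log2 fold scale (adjusted p 0.0142), a call that was lost (adjusted p 0.0645) without WT replicate C. The keratins did not move together. Krt18 had a negative estimate of -0.37 (adjusted p 0.118), with all knockout libraries below WT, and Krt8 had 0.39 (adjusted p 0.133) with overlapping groups. Neither was called, and both were named after their values were seen. Evpl, the gene of the plakin envoplakin, stood at 0.57 (adjusted p 0.0212), lost without WT replicate A, WT replicate B or knockout replicate B. Named after their values were seen, Ppl (periplakin) had 0.45 (adjusted p 0.0402), a call kept in 8 of 16 alternatives, and Dst (dystonin) had -0.44 (adjusted p 0.0107). The call of Dst was lost without WT replicate B. Dst lies on chromosome 1, and with that chromosome's median removed its log2 fold change was -0.11 (adjusted p 0.547). Jup, the plakoglobin gene shared by desmosomes and adherens junctions, was at 64.8 ± 3.90 and 67.4 ± 8.61 CPM.

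In the group of nectin relatives and actin linkers, 1 of 19 tested genes was called higher and 3 lower. These make 21.1%, against 13.3% of all tested genes. Lima1, an actin bundler that binds alpha-catenin, fell from 181 ± 14.4 to 121 ± 9.81 CPM (log2 fold change -0.59, adjusted p 0.000631). Cadm3, a nectin-like adhesion molecule, had at most 6 counts in any knockout library and, against a WT level of 1.26 ± 0.629 CPM, was at least 4.23-fold lower when the floor was taken per library. Its call was lost without WT replicate A. Sorbs3 (vinexin), a vinculin-binding protein of chromosome 14, rose from 12.04 ± 1.67 to 22.97 ± 1.98 CPM (log2 fold change 0.93, adjusted p 0.000544), against 0.40 (adjusted p 0.0977) with the chromosome median removed. Epb41l5 of chromosome 1, named after its value was seen, had -0.54 (adjusted p 0.00145) and, with the median removed, -0.22 (adjusted p 0.175).

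Of 19 further polarity genes, 1 was called higher and 0 lower (5.26%, against 13.3% of all tested genes). An unadjusted p under 0.05 in edgeR's test was found for 7 (36.8%), against 26.7% of all tested genes. Dlg5, a membrane-associated guanylate kinase of chromosome 14, rose from 80.3 ± 5.25 to 140 ± 11.02 CPM (log2 fold change 0.80, adjusted p 4.86e-05). With the median of chromosome 14 removed its log2 fold change was 0.27 (adjusted p 0.0809).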

How the data were processed

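Total RNA was isolated with TRIzol and made into directional libraries, per the labels' protocols. Raw counts per gene in 1 table are what the authors deposited; cutadapt 2.10, STAR 2.7.5b and featureCounts 2.0.1 and the build GRCm38 are named in the submitters' processing notes. Identifiers were matched to GENCODE M21 symbols without their version, and 55141 of 55401 genes received a symbol. Among counts from 1 to 10, 78.1% to 83.1% were even, so the floor was set to 6 counts (0.262 CPM to 0.332 CPM) and not 3. Floors from counts cover counting error only.

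Counts were tested with edgeR 4.0.16 in R 4.3.3: filterByExpr (smallest count 10, total 15), TMM scaling, and a quasi-likelihood fit to the 6 libraries that held genotype alone, with Benjamini-Hochberg adjustment over 17325 genes. Standard errors and 95% intervals were derived from the F statistic of that fit, so they include the spread between these libraries. The procedure was tested on simulated data. The 32 members, the further genes and the tests were chosen with earlier results of these data known. All members were named, and up to 3 called genes with the largest changes in each of 5 groups of further genes; some of these are not reported here. Alternatives were other scalings and filters, DESeq2 1.42.0, limma-voom (limma 3.58.1), the replicate letter as a block, halved counts, removal of the medians of chromosomes 1 and 14, and leaving out each library.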

Additional observations from a re-analysis of the deposited data

How the results depend on the processing

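Of 512 values of single genes under 16 alternatives, 467 kept their direction and their side of the threshold, 10 lost the call, 8 gained one and 27 changed sign; none of the sign changes was of a called gene. Members called higher ranged from 3 to 6 over the fits without one library, with 3 without WT replicate A and 3 without knockout replicate C, and members called lower from 1 to 2. Called lower were 3 under library totals, 3 under the upper quartile and 2 under the filter of at least 50 counts in 3 libraries. All called genes ranged, over the fits without one library, from 1374 (without WT replicate A) to 2784 (without knockout replicate A), with 1470 without WT replicate B. With no filter on low counts they were 2799. The replicate letters were not taken as pairs, since not every same-letter correlation was over 0.1: deviations of same-letter libraries correlated at 0.19 for A, -0.10 for B and 0.38 for C over 12848 genes. WT replicates A and C correlated best with the knockout replicate of their own letter, and WT replicate B with knockout replicate A (0.23). With the replicate block 6 members were called higher, 1 lower, and 2686 genes in all.

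Signs changed for genes that were not called. Without the filter, Tjp3 had a log2 fold change of 0.0141, Pkp4 0.0135, Nectin2 0.0169 and Gja1 0.0081. Under library totals and the upper quartile, Afdn had -0.0159 and -0.017 and Pard3 -0.0065 and -0.0074. With chromosome medians removed, F11r had 0.0718 and Vcl -0.28. Over the fits without one library the ranges were -0.28 to 0.17 for Tjp3, -0.19 to 0.0684 for Marveld2, -0.0179 to 0.18 for Dsp, -0.0504 to 0.0445 for Pkp4, -0.0599 to 0.057 for Nectin2, -0.0122 to 0.11 for Pard3, -0.0034 to 0.0803 for Pard6b, -0.52 to 0.0016 for Crb3 and -0.18 to 0.10 for Gja1. Differences of shares ranged, in percentage points, from -5.42 to 1.44 for Tjp1, -0.0101 to 6.57 for Pkp4, -0.559 to 3.06 for Dsg2 and -3.23 to 1.81 for Gja1. The 95% intervals of Crb3 and Dsc2 included 0.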

Other observations

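Ocln and Marveld2, 43.2 kb apart on chromosome 13 on the same strand, had log2 fold changes of 0.55 and -0.06.

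In 2 of the 32 members, Ocln and Gjb5, the 6 libraries stood in the same order as in the summed level of the extraembryonic endoderm markers. That sum was 153, 199 and 219 CPM in the WT libraries A, B and C and 413, 522 and 767 CPM in the knockout replicates. Lama1 made up most of it, at 125, 160 and 174 CPM in WT and 339, 430 and 622 CPM in the knockout replicates. Sox17 and Gata6 stood in the same order as the sum, and Gata4, Sox7, Foxa2 and Dab2 did not. How many of all tested genes share the order was not counted. The match was noticed after the values were seen, and was not tested.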
